A study of Rattus norvegicus with 2 samples.

Results

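The cells described here are rat meniscus cells that were rich in Chad and low in Col2a1. Chad encodes chondroadherin, a leucine-rich protein that binds chondrocytes through integrins, and Col2a1 encodes the fibrillar collagen of hyaline cartilage. A cell was taken when it held at least 500 genes, at most 20% of its unique molecular identifier (UMI) counts in mitochondrial genes, at least 10 Chad UMIs, fewer than 10 Col2a1 UMIs and no UMI of Ptprc, the pan-leukocyte antigen CD45. This left 50 cells of 14858 that passed the filter. The aged library gave 33 of 6085 cells (0.542%, exact binomial 95% interval 0.374 to 0.761), and the young library gave 17 of 8773 (0.194%, 0.113 to 0.310). The number of cells equals the smallest that the rule accepts, so the Chad minimum was not lowered. The study profiled meniscus, the fibrocartilage pad of the knee, from aged and from young rats by droplet single-cell RNA sequencing, with 1 library at each age. The tissue of both groups was minced, digested with protease and collagenase, strained and sorted for viable cells. The labels give no strain, sex, age in numbers or count of animals for either group. With 1 library at each age there is no replicate, so no p-value or standard error is given, and intervals cover counting error only.

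The meniscus is a fibrocartilage: its inner zone holds rounded cells in an aggrecan and type II collagen matrix, and its outer zone holds elongated cells in a dense type I collagen matrix. Surface cells secrete lubricin, the product of Prg4, and BMP and WNT antagonists such as Grem1 and Frzb are known for holding cartilage away from hypertrophy. ATF3, a stress-induced transcription factor of the ATF/CREB family, and the cell cycle inhibitors encoded by Cdkn1a and Cdkn2a are commonly used as signs of stress and senescence. The study's title concerns Atf3 in senescent chondrocytes.

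The Col2a1 limit acted on the young library alone. The highest Col2a1 count in any aged cell that passed the filter was 3 UMIs, against 815 in the young library. With Chad of at least 10 and no Ptprc there were 33 aged and 109 young cells, and 92 of the young cells then had at least 10 Col2a1 UMIs. The Chad values just inside the limit were 12, 13, 14 and 15 UMIs in aged and 12, 24, 25 and 50 in young cells. Just outside they were 8, 7, 7 and 7 in aged cells and 2 in the nearest young cells. The Col2a1 values just inside were 9, 9, 8 and 6 in young cells, and just outside 18, 19, 22 and 25. Ptprc removed 1 aged and 3 young cells that met the other limits. The cells were selected on these values, which are given as a description.

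**Figure D1:**
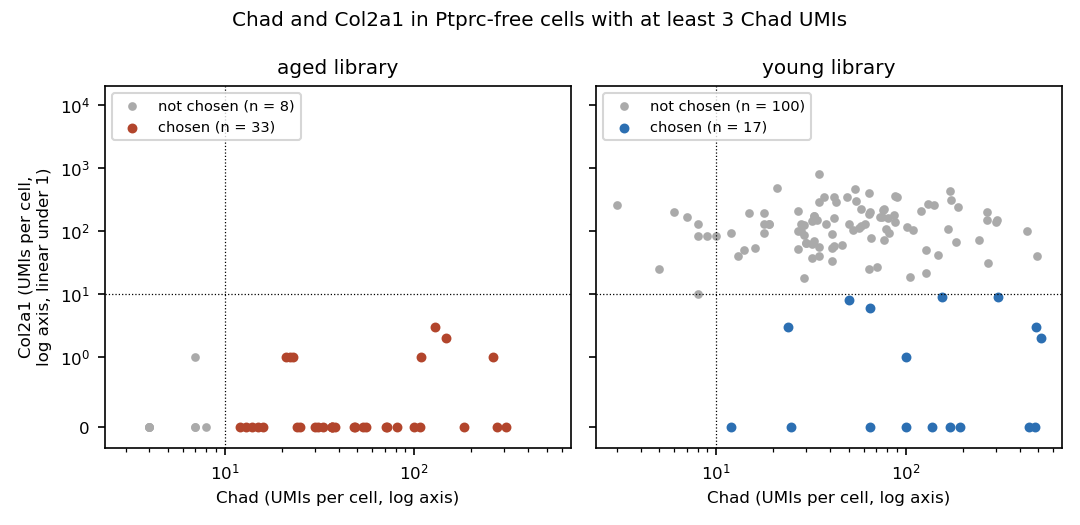
Each point is 1 cell that passed the filter, with no Ptprc UMI and at least 3 Chad UMIs; the x axis gives Chad and the y axis Col2a1, both in UMIs per cell on log axes (y linear under 1), and dotted lines mark the limits of 10. All 33 aged cells with at least 10 Chad UMIs lie at 3 Col2a1 UMIs or fewer, whereas 92 of 109 young cells lie above the Col2a1 limit.

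The 33 aged cells held 261292 UMIs in all, with a median of 6800 per cell, and the 17 young cells held 218910, with a median of 12283. Mitochondrial genes took a median of 3.62% of aged and 5.39% of young UMIs. The libraries shared 18 barcodes, none of them among these cells. Scrublet, a doublet caller, marked 0 aged and 3 young cells of the whole libraries, which is too few to show that it worked, and none of these cells. Of the 50 cells, 7 aged and 3 young lay among the top 8% of doublet scores.

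The cells carried cartilage genes in both libraries. Sox9, the transcription factor that specifies chondrocytes, was found in 26 of the 33 aged cells and 15 of the 17 young cells. Comp, a pentameric cartilage matrix protein, was found in 32 of the 33 aged cells and 17 of the 17 young cells, and Acan, the core protein of aggrecan, in 13 of the 33 aged cells and 16 of the 17 young cells. Of a list of 15 chondrocyte markers, which includes Chad and Col2a1, 13 had a UMI in each library. The aged cells had none of Col9a1 and Matn3, and the young cells none of Matn3 and Cnmd. Of the 7 markers proposed for these cells, Grem1 was found in 2, Ibsp in 5 and Frzb in 8 of the 33 aged cells. The 7 markers therefore do not describe the aged cells as a set, and the cells are called here by their rule.

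Markers of other cell types were counted in the same cells. The T or NK cell list (6 genes) and the Schwann cell list (4 genes) were at 0 in both libraries. Of the endothelial list, 2 of 7 genes in aged and 1 of 7 in young cells had a UMI, with Cdh5, Kdr and Vwf at 0 and 0 to 1 UMIs per aged cell and 0 to 2 per young cell. Of the macrophage and monocyte list, 3 of 9 in aged and 1 of 9 in young cells had a UMI, with C1qa, C1qb and Csf1r at 0 and 0 to 9 UMIs per aged cell and 0 to 7 per young cell. The B cell list reached 5 of 10 genes in aged and 2 of 10 in young cells (0 to 24 UMIs per aged cell and 0 to 8 per young cell), with Pax5 and Ms4a1 at 0. The neutrophil list reached 7 of 10 and 8 of 10 genes (0 to 5 UMIs per aged cell and 3 to 11 per young cell). The erythroid list reached 5 of 8 and 4 of 8 genes (0 to 754 UMIs per aged cell and 0 to 11 per young cell), with Alas2 at 0, and 1 aged cell held 325 UMIs of Hba-a1. Some further lists overlap with genes reported below. The fibroblast list reached 7 of 10 and 5 of 10 genes (0 to 113 UMIs per aged cell and 0 to 682 per young cell), with Cd34 at 0, and the osteoblast and osteocyte list 3 of 9 and 1 of 9 (0 to 38 UMIs per aged cell and 0 to 1388 per young cell), where the young UMIs were all of Col1a1 and Sp7, Dmp1, Phex and Sost were at 0. The tenocyte list reached 4 of 5 genes in each library (0 to 143 UMIs per aged cell and 0 to 155 per young cell), with Mkx at 0. The synovial lining list, which holds Prg4, reached 4 of 5 and 3 of 5 genes (0 to 916 UMIs per aged cell and 0 to 422 per young cell). The leukocyte (0 to 27 UMIs per aged cell and 0 to 12 per young cell), mural (0 to 3 UMIs per aged cell and 0 to 5 per young cell), osteoclast (0 to 10 UMIs per aged cell and 0 to 16 per young cell), adipocyte (0 to 19 UMIs per aged cell and 0 to 1 per young cell), muscle (0 to 1 UMIs per aged cell and 0 to 1 per young cell) and cycling (0 to 26 UMIs per aged cell and 0 to 1 per young cell) lists were at a median of 0 to 2 UMIs per cell. What these counts add to the results was not tested, except that each aged against young result was also computed without the 5 cells that held at least 5 Cd79b or 10 Hba-a1 UMIs.

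The 7 markers split by age. In summed levels Cytl1 stood on the aged side, Cilp2, Frzb and Grem1 on the young side, and Spp1 and Ibsp rested largely on single cells. All young Grem1 and nearly all young Frzb UMIs came from 13 young cells with Col1a1, described below. Levels are given as UMIs per 1000000 UMIs (CPM), either of 1 cell or of all UMIs summed over the cells of a library, and a log2 ratio is aged over young of the summed CPM with its 95% counting interval. Chad itself, which chose the cells, summed to 9484 and 15280.3 CPM.

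Cytl1 encodes a small secreted protein of cartilage. The lowest, median and highest cell held 0, 2086 and 17254 CPM in the aged library and 0, 0 and 488 CPM in the young library. The highest young cell lay below the aged median, though some aged cells held none. Summed levels were 3624 and 109.6 CPM, a log2 ratio of 5.05 (4.46 to 5.70). With each cell thinned to 2000 UMIs, Cytl1 was found in 24 of 33 (72.7%, 54.5 to 86.7) aged and 1 of 17 (5.88%, 0.149 to 28.7) young cells. The unthinned shares were 81.8% and 47.1%, at median depths of 6800 and 12283 UMIs. In B cells, which should lack the gene, the thinned shares were 0.232% and 0.105%, at median depths of 5257 and 4161 UMIs.

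Cilp2, a matrix protein related to the cartilage intermediate layer protein, went the other way. Its lowest, median and highest cells were at 0, 121 and 3464 CPM in aged and 244, 5801 and 28117 CPM in young cells. All 17 young cells and 20 of 33 aged cells held it, and the aged highest cell lay below the young median. The summed levels were 489.9 and 5285 CPM, a log2 ratio of -3.43 (-3.71 to -3.17). Frzb, a secreted decoy receptor for WNT ligands, was at 0, 0 and 793 CPM in the lowest, median and highest aged cell and at 0, 729.7 and 8507 CPM in young cells. The median aged cell had none and the median young cell stood near the highest aged cell. The log2 ratio of the sums was -4.10 (-4.69 to -3.55). Grem1, a secreted BMP antagonist, was found in 2 of the 33 aged cells and 6 of the 17 young cells, with sums of 19.1 and 443 CPM and a log2 ratio of -4.53 (-6.19 to -3.26). Of the 5 aged Grem1 UMIs, 4 came from 1 cell, and without the highest cell of each library the ratio was -6.19.

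Spp1 encodes osteopontin, a phosphoprotein of mineralised and stressed matrix. It was found in 10 of the 33 aged cells and 10 of the 17 young cells, at sums of 1726 and 5079.7 CPM and a log2 ratio of -1.56 (-1.72 to -1.40). A single young cell held 69.2% of the young UMIs, and without the highest cell of each library the ratio was -0.52. It turned to 0.24 with fewer than 3 Col2a1 UMIs allowed. Ibsp, bone sialoprotein, was found in 5 of the 33 aged cells and 7 of the 17 young cells, with a log2 ratio of 1.47 (0.73 to 2.27). A single aged cell held 72.7% of the aged UMIs and a single young cell 55% of the young UMIs. Without the highest cell of each library the Ibsp ratio was 0.74. The aged cell also held 9 Cd79b UMIs, and without the cells with Cd79b or Hba-a1 the ratio was -0.12. No direction is read for either gene.

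The 250 bases upstream of the start sites of 4 genes are shown, because Chad defines the cells and Cytl1, Frzb and Cxcl1 had some of the largest differences between the libraries. The sequences are from RefSeq, build GRCr8, written 5′ to 3′ on the strand of the gene: Chad from chr10:80008795-80009044 (plus strand), Cytl1 from chr14:77283646-77283895 (minus strand), Frzb from chr3:85772097-85772346 (minus strand) and Cxcl1 from chr14:17479322-17479571 (minus strand). Capitals mark matches on either strand to TATAAA, to AACAAT (the core bound by SOX factors), to GGGA, any base, then TTTCC (a form of the NF-kB site), to TGANTCA (AP-1) or to TGACGTCA (the CRE of ATF and CREB factors).
Chad: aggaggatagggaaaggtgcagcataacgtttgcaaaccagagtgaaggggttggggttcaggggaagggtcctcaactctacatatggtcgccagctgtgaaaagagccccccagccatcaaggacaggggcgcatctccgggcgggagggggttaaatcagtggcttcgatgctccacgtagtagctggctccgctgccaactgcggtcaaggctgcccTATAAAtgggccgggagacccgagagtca
Cytl1: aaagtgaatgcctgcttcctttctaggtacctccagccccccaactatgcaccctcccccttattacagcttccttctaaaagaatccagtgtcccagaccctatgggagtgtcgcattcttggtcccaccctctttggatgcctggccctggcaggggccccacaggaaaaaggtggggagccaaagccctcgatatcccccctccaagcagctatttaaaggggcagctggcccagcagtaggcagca
Frzb: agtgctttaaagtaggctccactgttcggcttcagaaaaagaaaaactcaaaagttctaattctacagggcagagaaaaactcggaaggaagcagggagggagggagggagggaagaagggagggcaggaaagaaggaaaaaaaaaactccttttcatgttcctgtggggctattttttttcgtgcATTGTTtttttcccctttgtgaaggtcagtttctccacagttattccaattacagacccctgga
Cxcl1: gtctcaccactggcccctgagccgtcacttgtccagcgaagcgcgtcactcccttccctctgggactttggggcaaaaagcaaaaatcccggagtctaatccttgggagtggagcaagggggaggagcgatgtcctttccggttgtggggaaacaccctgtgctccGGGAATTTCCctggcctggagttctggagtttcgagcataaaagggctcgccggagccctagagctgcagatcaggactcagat
In Chad the capitals are a TATAAA that starts at position -29 from the start site, in Frzb an AACAAT on the opposite strand at -64, and in Cxcl1 an NF-kB string at -84. Cytl1 held none of the 5 strings. Of 33469 promoter windows of this length, 12.9% held TATAAA, 10.3% AACAAT, 0.314% the NF-kB string, 6.34% TGANTCA and 1.59% TGACGTCA. A match describes the letters only.

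**Figure D2:**
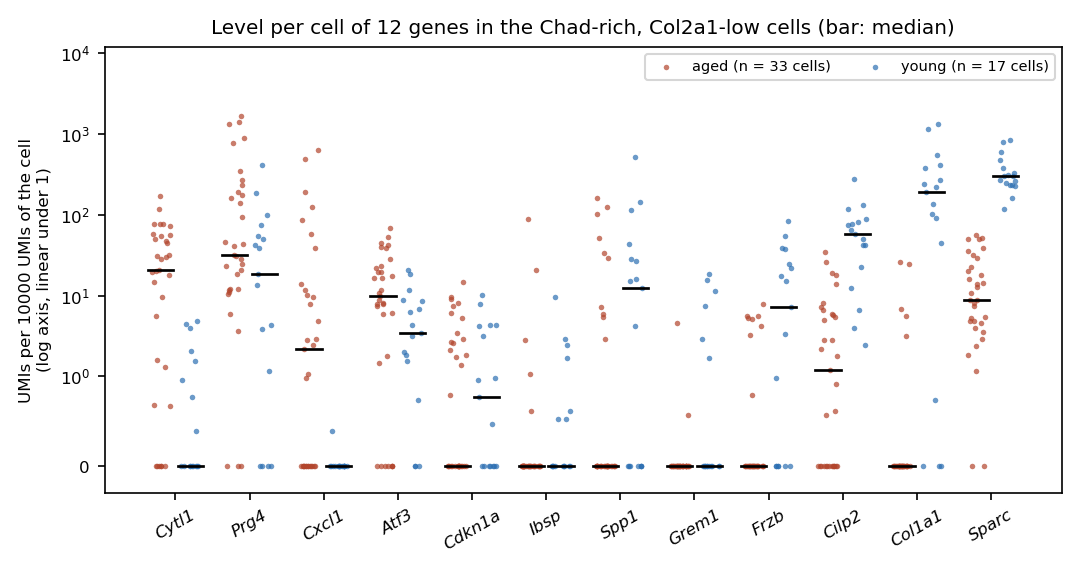
Each point is 1 cell, bars are medians, and the y axis gives UMIs per 10000 UMIs of the cell on a log axis that is linear under 1, for 12 genes in the 33 aged and 17 young cells. Cytl1 and Cxcl1 are high in aged cells, Cilp2, Frzb, Col1a1 and Sparc in young cells, and Cdkn1a overlaps throughout.

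Many genes passed a 1.5-fold limit between aged and young cells. This limit, also used below, takes the ratio without its counting interval, so a gene with few UMIs can pass by counting error. Of 2426 genes with at least 20 UMIs summed over both libraries, called measured below, 572 (23.6%) were at least 1.5-fold higher in aged cells and 582 (24%) at least 1.5-fold lower. The median log2 ratio of all measured genes was -0.01. Scaling by DESeq2's median of ratios, which adds 0.17 to every log2 ratio, gave 733 higher and 454 lower. These shares are the background for every list below, and a list whose share of higher or lower genes is near them does not stand apart.

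The 12 largest ratios towards aged were led by Cxcl1, a chemokine that draws neutrophils. Its lowest, median and highest cells were at 0, 215 and 63716 CPM in the aged library, where 19 of 33 cells held it. Only 1 young cell held it, with 1 UMI. The summed levels were 6058 and 4.57 CPM, a log2 ratio of 10.37 (7.89 to 15.68), which was 7.91 without the highest cell, the source of 45.7% of the aged UMIs. Thinned to 2000 UMIs it was found in 17 of 33 (51.5%, 33.5 to 69.2) aged cells. It was found in 0 of 17 young cells, which allows a share of cells with a UMI of up to 17.6%, taking 3 counts over the number of cells as the limit in place of an interval. The unthinned shares were 57.6% and 5.88%, and the thinned shares in B cells were 1.51% and 0.684%.

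The other genes of this group were of several kinds. Ptgs2, the inducible cyclooxygenase, stood at 501 and 18.3 CPM with a log2 ratio of 4.78 (3.39 to 6.68), in 10 aged cells. Irf1, an interferon-responsive transcription factor, stood at 486 and 27.4 CPM, with a ratio of 4.15 (2.99 to 5.62). RT1-A1, a classical MHC class I heavy chain, was found in 26 of the 33 aged cells and 2 of the 17 young cells, with a ratio of 4.97 (3.07 to 8.05). The other genes were found in fewer cells. Msmp, a microseminoprotein family gene, was at least 43.6-fold higher in aged cells, in 7 of them. Lum, the proteoglycan lumican, was at least 29.6-fold higher in 5 cells, and Pla2g2a, a secreted phospholipase, at least 14-fold higher in 7. All 3 had no young UMI, so these bounds use a floor of 3 counts for the young library. Ccn5, a matricellular protein, had 50 aged UMIs and 1 young UMI (5.39, 2.84 to 10.72). Cks2, a cyclin-dependent kinase subunit, had a ratio of 3.93 (2.76 to 5.41). Stmn1, a tubulin-binding protein, and Penk, the enkephalin precursor, had ratios of 3.91 and 4.45, with 66.7% and 55.8% of their aged UMIs in 1 cell. Without the highest cell of each library the ratio was 5.81 for RT1-A1 and 2.91 for Stmn1. For Ccn5 and Penk no young UMI was then left, and the floor of 3 counts gave lower bounds of 3.33 and 2.68.

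The 12 largest ratios towards young were led by Col1a1 and Sparc. Besides Col1a1, Sparc, Col3a1, Col6a2, Grem1, Frzb and Cilp2 they held Agt, angiotensinogen (-3.79, -4.89 to -2.86), C1qtnf5, a secreted C1q family protein (-3.65, -4.91 to -2.60), Crispld1, a cysteine-rich secretory protein (-3.25, -4.04 to -2.53), and Dpp7, a lysosomal dipeptidase (-2.78, -3.47 to -2.15). Kera, the corneal and tendon proteoglycan keratocan, was also among them (-3.98, -5.91 to -2.54), but 92.5% of its young UMIs came from 1 cell, and without the highest cell of each library its ratio was -1.26.

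**Figure D3:**
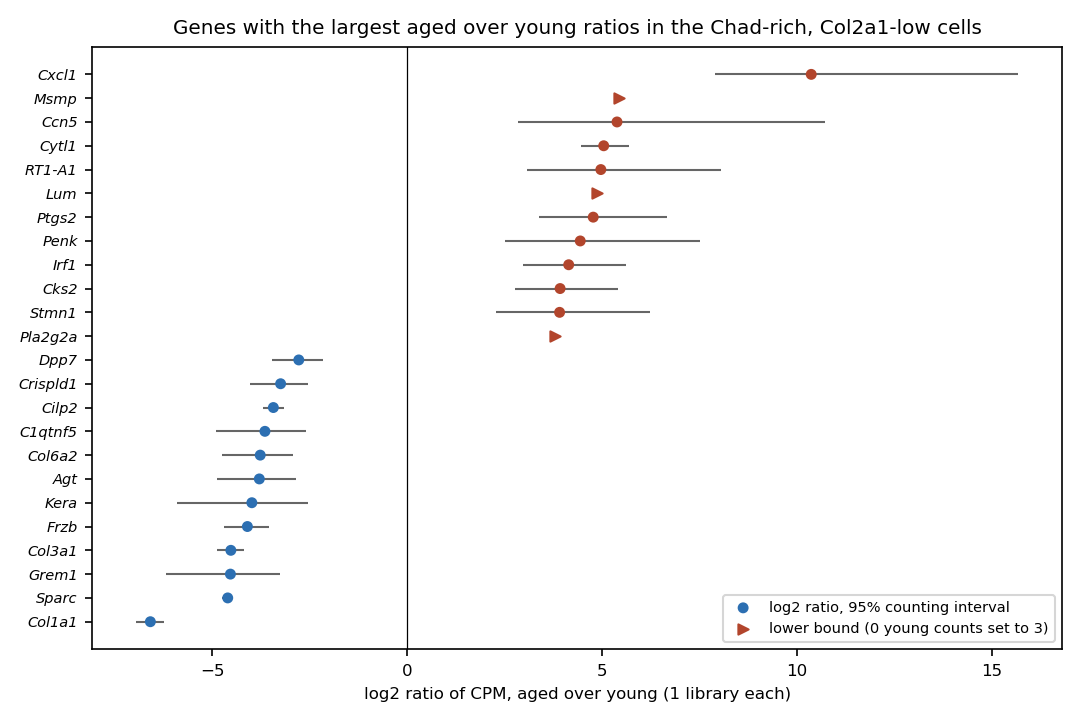
The x axis gives the log2 ratio of summed CPM, aged over young, with 1 library each; points are the 12 genes with the largest ratio in each direction, lines their 95% counting intervals, and arrowheads lower bounds for genes with no young UMI. Cxcl1 lies at 10.37 and Col1a1 at -6.59.

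Fibrous matrix genes leaned towards the young cells. Of 22 fibrous matrix genes 12 were measured, and 8 were lower and 3 higher in aged cells, with a median log2 ratio of -2.38. Its genes made up 1.12% of all UMIs in the aged cells and 7.69% in the young cells. Col1a1, a chain of type I collagen, was at 0, 0 and 2586 CPM in the lowest, median and highest aged cell and at 0, 19317 and 133487 CPM in young cells. It was found in 5 of the 33 aged cells and 14 of the 17 young cells, and the median young cell lay above the highest aged cell. The log2 ratio was -6.59 (-6.95 to -6.25), and -7.31 without the highest cell, which held 54.3% of the 70 aged UMIs. Thinned to 2000 UMIs, Col1a1 was in 3 of 33 (9.09%, 1.92 to 24.3) aged and 13 of 17 (76.5%, 50.1 to 93.2) young cells, and unthinned in 15.2% and 82.4%. In B cells the thinned shares were 1.16% and 9.37%, a background that was higher in the young library.

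Sparc, a collagen-binding glycoprotein, did not overlap between the libraries. Its lowest, median and highest cells were at 0, 882 and 5702 CPM in aged and 11968, 30122 and 83859 CPM in young cells, so every young cell lay above every aged cell. The log2 ratio was -4.60 (-4.75 to -4.46), and it was found in 1.39% of thinned aged B cells and 11.1% of thinned young B cells. Col3a1, the type III collagen chain, had a ratio of -4.52 (-4.89 to -4.18) and Col6a2, a chain of the pericellular type VI collagen, -3.77 (-4.76 to -2.92). Tnc, tenascin C, had 1 aged UMI and 25 young UMIs (-4.90, -10.26 to -2.29). Of the aged Col3a1 UMIs 50.7% came from 1 cell, and without the highest cell of each library the ratio was -5.26 for Col3a1. For Tnc no aged UMI was then left, and the floor of 3 counts for the aged library gave a bound of -2.84 or lower. On the aged side Fn1, fibronectin, stood at 7023 and 2896 CPM, a ratio of 1.28 (1.15 to 1.41).

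Genes that modify and cross-link collagen were lower together. Of 15 measured genes of 21, 13 were lower and 1 higher, with a median of -1.65. Serpinh1, the collagen chaperone HSP47, stood at 168 and 1064 CPM (log2 ratio -2.66, -3.16 to -2.19). P3h1, a prolyl 3-hydroxylase, and Loxl2, a lysyl oxidase, each had 2 aged UMIs in 1 cell, with ratios of -4.30 (-7.40 to -2.33) and -4.06 (-7.18 to -2.08). Adamts2, the procollagen N-proteinase, also had 2 aged UMIs, with a ratio of -3.43 (-6.58 to -1.36). Of the young Adamts2 UMIs 55.6% came from 1 cell. Without the highest cell of each library neither P3h1 nor Loxl2 had an aged UMI left. The floor of 3 counts for the aged library then gave bounds of -3.43 or lower for P3h1 and -2.99 or lower for Loxl2. Of the 8 cartilage collagen genes 3 were measured and all 3 were lower in aged cells. Among them is Col2a1, which the rule used. The others were Col11a1 (199 and 1306 CPM, -2.71, -3.17 to -2.28) and Col11a2 (99.5 and 251 CPM, -1.34, -2.07 to -0.64), which encode chains of the type XI collagen that seeds cartilage fibrils.

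The noncollagenous cartilage matrix was mixed. Of 22 genes 14 were measured, 5 higher and 7 lower, with a median of -0.33, and they made up 6.57% of all UMIs in aged cells and 7.25% in young cells. Prg4, lubricin, was at 0, 3200.4 and 165901 CPM in the lowest, median and highest aged cell and 0, 1877 and 41425 CPM in young cells. The ranges overlapped widely and the medians differed less than the sums, which were 20223 and 4888 CPM (log2 ratio 2.05, 1.95 to 2.14). Acan stood at 126 and 352 CPM (-1.48, -2.11 to -0.87), and Hapln1, the link protein that ties aggrecan to hyaluronan, at 207 and 1119 CPM (-2.44, -2.89 to -2.01). Fibin, a secreted protein, had a ratio of -2.43 (-2.80 to -2.07). Comp stood at 9235 and 25326 CPM (-1.46, -1.52 to -1.39). Snorc, a chondrocyte transmembrane proteoglycan, stood at 2633 and 1841 CPM, a ratio of 0.52 (0.34 to 0.70). It was 1.59 with fewer than 3 Col2a1 UMIs allowed and -1.65 with no Col2a1 limit, so no direction is read for it. Ecrg4, a secreted precursor protein, had a ratio of 0.03 (-0.05 to 0.11), and Mgp, matrix Gla protein, an inhibitor of calcification, 0.59 (0.52 to 0.65), which was 1.27 without the highest cell of each library.

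Other surface and proteoglycan genes differed in both directions. Of the 7 measured small leucine-rich proteoglycans 3 were higher and 3 lower. Dcn, decorin, stood at 18577 and 6459 CPM (1.52, 1.44 to 1.61), with 50.8% of the young UMIs in 1 cell and a ratio of 2.22 without the highest cell of each library. Bgn, biglycan, stood at 1152 and 5285 CPM (-2.20, -2.39 to -2.01). Of 5 measured genes of the lubricating surface 4 were higher and 0 lower. Among them were Clu, the extracellular chaperone clusterin (14164 and 5221 CPM, 1.44, 1.34 to 1.54), and Hbegf, an EGF receptor ligand (1.29, 0.70 to 1.90). Htra4, a serine protease with 1 young UMI, was also higher (4.55, 1.96 to 9.91). Without the highest cell of each library Htra4 had no young UMI, and the floor of 3 counts gave a lower bound of 2.41. Of 6 measured genes of glycosaminoglycan synthesis 4 were lower and 1 higher, with a median of -0.91. The largest was Chpf, a chondroitin polymerising factor (-1.20, -2.29 to -0.18).

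Secreted antagonists of BMP and WNT signals were lower or under 1.5-fold apart in aged cells: 5 of 8 measured genes were lower and 0 higher, with a median of -1.14. Besides Grem1 and Frzb they included Wif1, which binds WNT ligands (704 and 2069 CPM, -1.56, -1.81 to -1.30), and Fstl1, a follistatin-like BMP modulator (-1.66, -2.42 to -0.95). Among the signals and their targets, 4 of 13 were higher and 7 lower, with a median of -0.60. Bmp2, a BMP ligand, was found in 21 of the 33 aged cells and 5 of the 17 young cells, with sums of 566 and 68.5 CPM and a ratio of 3.05 (2.28 to 3.92). Id3, a BMP target gene, stood at 865 and 210.1 CPM (2.04, 1.58 to 2.53) and Id2 at 153 and 384 CPM (-1.33, -1.91 to -0.77). These Id genes, close paralogs, thus stood on opposite sides. Inhba, an activin subunit, had a ratio of -1.20 (-2.25 to -0.22), with 88.9% of the young UMIs in 1 cell, and it turned to 1.62 without the highest cell.

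Of 5 measured growth factor and cytokine receptors, 3 were higher and 1 lower. Fgfr2, an FGF receptor, stood at 126 and 9.14 CPM (3.79, 1.82 to 6.89), Tgfbr3, the betaglycan coreceptor, had a ratio of 2.14 (1.03 to 3.44), and Tnfrsf11b, the RANKL decoy osteoprotegerin, -1.09 (-1.61 to -0.59). Of 7 cell-matrix receptors 3 were higher and 3 lower. Sdc4, the heparan sulfate proteoglycan syndecan-4, was at 0, 535 and 10854 CPM in the lowest, median and highest aged cell and 0, 156 and 1394 CPM in young cells, with a ratio of 3.30 (2.85 to 3.79). Its ranges overlapped, with a higher aged median. Sdc1, a syndecan with 3 aged UMIs, had a ratio of -2.92 (-5.32 to -1.15). Without the highest cell of each library the ratio was 4.55 for Fgfr2 and -3.96 for Sdc1. Of 4 measured genes of the IGF axis 1 was higher and 2 were lower, and Igfbp7, a secreted binding protein, stood at 3846 and 8716 CPM (-1.18, -1.29 to -1.07).

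Of 18 measured transcription factors of cartilage and tendon, 8 were higher and 3 lower, with a median of 0.50. Sox9 stood at 409.5 and 297 CPM (0.46, 0.01 to 0.93), which is under 1.5-fold. Scx, the tendon factor scleraxis, was found in 4 aged and 7 young cells with a ratio of -2.19 (-3.30 to -1.21), and 69% of its young UMIs came from 1 cell. Pitx1, a hindlimb homeodomain factor, had a ratio of -1.39 (-2.23 to -0.60), and Egr1, an early growth response factor, 1.70 (1.55 to 1.86). Of the mineralization list 4 of 6 measured genes were higher and 1 lower. The list includes Ibsp and Spp1, for which no direction is read, and Mgp, which passed the 1.5-fold limit narrowly, at 0.59. Slc20a1, a phosphate transporter, stood at 272 and 45.7 CPM (2.57, 1.61 to 3.69), and Alpl, alkaline phosphatase, had 21 aged UMIs and none in young cells (at least 5.86-fold higher). The Alpl ratio turned to -0.67 with no Col2a1 limit. Of 16 proteases and inhibitors 5 were higher and 7 lower. Serpina1, alpha-1-antitrypsin, had the largest ratio that is not a bound (425 and 59.4 CPM, 2.84, 2.01 to 3.79), and Plau, urokinase, had no young UMI (at least 12.3-fold higher). Of the young Serpina1 UMIs 53.8% came from 1 cell. Without the highest cell of each library the ratio was -1.37 for Scx, 3.33 for Slc20a1 and 3.5 for Serpina1.

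Early response genes were more often higher in aged cells. Of 30 measured genes of 40, 17 were higher and 4 lower, with a median of 1.32, against 23.6% higher among all measured genes. Atf3 was at 0, 985 and 6894 CPM in the lowest, median and highest aged cell and 0, 349 and 2086 CPM in young cells. The ranges overlapped, and the aged median was above the young one. The sums were 1634 and 489 CPM, a log2 ratio of 1.74 (1.43 to 2.06) that stayed between 1.23 and 2.48 over the alternatives run. AP-1 partners of ATF3, picked with their values known, stood on both sides. Fos had a ratio of -0.84 (-0.98 to -0.71), Jun -0.70 (-0.85 to -0.55) and Jund -0.66 (-0.83 to -0.49), whereas Junb had 0.90 (0.78 to 1.01).

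The share of cells with Atf3 differed less than its level. Thinned to 2000 UMIs, Atf3 was found in 23 of 33 (69.7%, 51.3 to 84.4) aged and 9 of 17 (52.9%, 27.8 to 77) young cells, and the intervals overlap. The unthinned shares were 78.8% and 82.4%. The thinned shares in B cells were 3.25% and 1.37%. In other stromal cells, which are defined below, they were 47.3% and 20%, and in young Col2a1-rich cells 40.2%. With 1 library at each age, a difference in the share of these cells with Atf3 was not tested.

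The largest ratios of the early response list beside Irf1 were those of Ier3, Nfkbia and Nfkbiz. Ier3, an early response gene of survival signalling, was at 0, 3834 and 26282 CPM in the lowest, median and highest aged cell and at 81.4, 662 and 3269 CPM in the young library. Its log2 ratio was 3.13 (2.89 to 3.37). The aged median lay above the highest young cell. Nfkbia, the NF-kB inhibitor, had a ratio of 2.85 (2.50 to 3.21), and Nfkbiz, a nuclear member of that family, 3.64 (2.80 to 4.62). Of the 12 young Nfkbiz UMIs 75% came from 1 cell, and without the highest cell of each library its ratio was 5.34.

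Of the senescence and arrest list 7 of 12 measured genes were higher and 1 lower, with a median of 1.06. Cdkn1a and Cdkn2a were not among the higher genes. Cdkn1a, which encodes p21, was at 0, 0 and 1459 CPM in the lowest, median and highest aged cell and 0, 76.9 and 1013 CPM in young cells. Its sums were 249 and 251 CPM, a log2 ratio of -0.01 (-0.55 to 0.53). Over the alternatives run the ratio lay between -0.48 and 1.16, with 0.63 after thinning to 2000 UMIs and the highest value with no Col2a1 limit, so no direction is read. Thinned, it was found in 11 of 33 (33.3%, 18 to 51.8) aged and 6 of 17 (35.3%, 14.2 to 61.7) young cells, and unthinned in 48.5% and 58.8%. Cdkn2a, which encodes p16, had 0 UMIs in both libraries. That is 0 of 33 aged cells and 0 of 17 young cells, which allows shares of cells with a UMI of up to 9.09% and 17.6%, taking 3 counts over the number of cells as the limit. This is no limit on cells that express the gene. The higher genes included Gadd45b (3249 and 448 CPM, 2.86, 2.56 to 3.18), Gadd45a (3.10, 2.11 to 4.27), and Sesn2, a stress-induced sestrin (1.95, 0.52 to 3.70). Glb1, the lysosomal beta-galactosidase, was lower (-2.71, -4.71 to -1.16, 4 aged UMIs, and -3.43 without the highest cell of each library).

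Secreted inflammatory genes had the highest median of the pathway lists, 2.91, with 8 of 13 measured genes higher and 3 lower. Summed, the list made up 1.24% of all UMIs in aged cells and 1.02% in young cells. The lower genes included Spp1 and Ccl2, a chemokine with all 876 young UMIs in 2 cells. Besides Cxcl1 and Ptgs2 the higher genes included Lcn2, lipocalin-2 (149 and 13.7 CPM, 3.45, 1.79 to 5.78), Hmox1, heme oxygenase (237 and 22.8 CPM, 3.38, 2.08 to 5.05, with 56.5% of the aged UMIs in 1 cell), and Tnfaip6, a hyaluronan-binding protein (1638 and 201 CPM, 3.03, 2.58 to 3.51). Of 7 complement genes 4 were higher and 2 lower, among them C1r (1.54, 0.79 to 2.36) and C1s (1.33, 0.75 to 1.94), the proteases of the classical pathway. In young cells 78.8% of the C1s UMIs came from 1 cell. Without the highest cell of each library the ratio was 4.14 for Lcn2, 2.50 for Hmox1, 2.18 for C1r and 3.24 for C1s. Of 7 interferon and MHC class I genes 4 were higher and 1 lower. RT1-A2 stood lower (-0.88, -1.65 to -0.13) where RT1-A1 stood higher, and it turned to 0.79 with no Col2a1 limit. These class I genes are near-identical copies, so both values are uncertain, and how the counting assigned their reads was not tested.

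Of 18 antioxidant and metal-binding genes 9 were higher and 3 lower. Gpx3, the secreted glutathione peroxidase, was at 0, 2927 and 14541 CPM in the lowest, median and highest aged cell and 0, 209 and 1338 CPM in young cells. The aged median was above the highest young cell, and the log2 ratio was 3.25 (2.95 to 3.57). Fth1, the ferritin heavy chain, stood at 19652 and 4810.2 CPM (2.03, 1.93 to 2.13) and Mt2A, a metallothionein, at 2070.5 and 489 CPM (2.08, 1.78 to 2.40, with 52.3% of the young UMIs in 1 cell and a ratio of 2.91 without the highest cell of each library). The heat shock and unfolded protein list split evenly, with 7 higher and 7 lower of 21: Hspb1, a small heat shock protein (2239 and 269.5 CPM, 3.05, 2.67 to 3.47), and Ddit3, the stress factor CHOP (2.52, 1.89 to 3.22), were higher, and Pdia6, a disulfide isomerase, was lower (-1.56, -2.12 to -1.02). Of 17 glycolysis and hypoxia genes 10 were lower and 1 higher, with a median of -0.84. Pfkl, the liver-type phosphofructokinase, had a ratio of -2.33 (-4.09 to -0.88), Pgam1, a phosphoglycerate mutase, -1.18 (-1.66 to -0.71), and P4ha1, a hypoxia-responsive prolyl hydroxylase, -1.50 (-1.96 to -1.06).

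Several of these differences were also present outside the Chad-rich cells. Other stromal cells were those with fewer than 10 Chad and 10 Col2a1 UMIs, no Ptprc and at least 10 UMIs summed over Dcn, Lum, Col1a1 and Prg4, 498 aged and 76 young. There 1503 of 8559 measured genes (17.6%) were higher in aged cells and 1448 (16.9%) lower. The log2 ratio was -3.11 (-3.14 to -3.08) for Sparc, 3.82 (3.64 to 4.00) for Ier3, 2.55 (2.39 to 2.73) for Atf3, 4.33 (4.19 to 4.48) for Cxcl1 and 5.13 (4.60 to 5.71) for RT1-A1. Col1a1, part of the rule for these cells, was at -4.34 (-4.37 to -4.31). The early response list had 25 of 36 genes higher and 0 lower, the secreted inflammatory list 14 of 20 higher, and the collagen-processing list 9 of 16 lower. The antagonist and glycolysis lists leaned otherwise, with medians of 0.41 and 0.09 against -1.14 and -0.84 in the Chad-rich cells. Of Cytl1 the aged and young other stromal cells held 14.6 and 0 CPM, and of Cilp2 33.7 and 51.5 CPM. With 1 library at each age, the difference between these ratios was not tested.

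**Figure D4:**
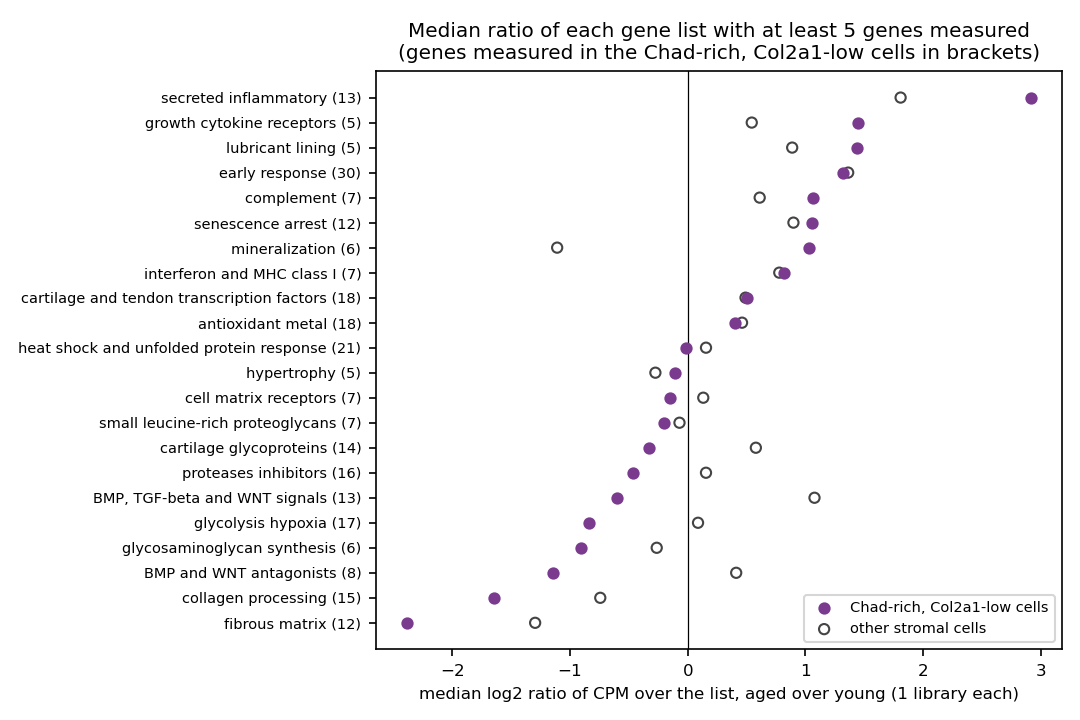
The x axis gives the median log2 ratio of summed CPM, aged over young, of each gene list with at least 5 genes measured; filled points are the Chad-rich, Col2a1-low cells and open circles the other stromal cells. Fibrous matrix lies lowest, at -2.38, and secreted inflammatory genes highest, at 2.91, in the Chad-rich cells.

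The cells of each library were not of 1 kind. The limits used to describe them were chosen after their values were seen, so the genes that set them are no finding. In the young library Col1a1 left a gap: 13 cells held 37 to 1388 UMIs and 4 cells held 0 or 1. The 13 cells held Cilp2 at 6516 CPM and the 4 cells at 613 CPM. All but 1 of the 416 Frzb UMIs, all 97 Grem1 UMIs and all 1112 Spp1 UMIs were in the 13 cells. The 4 cells instead held more Snorc (6397 against 641 CPM), Cytl1 (394 against 34.6 CPM), Id3 (789 against 57.7 CPM) and Prg4 (12356 against 2920.4 CPM). Their Chad, which chose the cells, had a lowest, median and highest count of 12, 37 and 65 UMIs, against 25, 172 and 518 UMIs in the 13 cells.

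The 2 deepest young cells stood apart again. They held 533 and 719 of the 1414 young Dcn UMIs, 675 and 201 of Ccl2, a monocyte chemokine found in no other young cell, and 103 and 359 of Mmp3, stromelysin. Both held Chad, at 480 and 100 UMIs, and Col1a1, at 417 and 627, and neither held Frzb or Grem1. Their depths were 21587 and 25662 UMIs. Whether they are doublets was not tested beyond Scrublet, which called neither.

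In the aged library 6 cells held 16 to 165 Spp1 UMIs and 27 held 0 to 5. Col1a1 was found in 5 of the 6 cells and in none of the 27. The 6 cells held more Dcn (62592 against 8556 CPM), Cilp2 (1527 against 254 CPM) and Thbs4, thrombospondin-4 of tendon (6232 against 108 CPM). The 27 cells held more Cytl1 (4233 against 949 CPM), Prg4 (24333 against 2167 CPM), Snorc (3148 against 371 CPM), Atf3 (1875 against 578 CPM) and Cxcl1 (7325 against 495 CPM), and all 156 Msmp UMIs. The 6 cells were not alike: 1 of them, with 48 Ibsp and 9 Cd79b UMIs, had no Comp or Dcn, and another, with 306 Chad UMIs, had no Col1a1.

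Set against each other, the 27 aged and the 4 young cells kept part of the difference between the libraries. The 27 were set apart by Spp1 and held no Col1a1, whereas the 4 were set apart by Col1a1. The 27 leave out the aged cell with 306 Chad UMIs, which also had no Col1a1. The 27 aged and the 4 young cells held Cytl1 at 4233 and 394 CPM, Sparc at 1189 and 21317 CPM, Ier3 at 7132 and 526 CPM and Gadd45b at 3078 and 197 CPM. Prg4 stood at 24333 and 12356 CPM, Cilp2 at 254 and 613 CPM, Frzb at 127 and 21.9 CPM and Grem1 at 23.5 and 0 CPM. For Frzb and Grem1 this order was opposite to that of the whole libraries. These are values of few cells and were not compared further.

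Across single cells of 1 library, levels in CPM of Chad and Cilp2 went together, with a Spearman rho of 0.59 over 33 aged and 0.59 over 17 young cells. For Chad and Comp it was 0.59 and 0.50, and for Snorc and Cytl1 0.47 and 0.55. Snorc and Dcn were opposed (-0.50 and -0.57), as were Col1a1 and Cytl1 (-0.50 and -0.57). For Atf3 and Cdkn1a it was 0.33 in aged and -0.22 in young cells. More pairs were computed than are given here, and some others also differed between the libraries. Among these were Chad and Cytl1 (0.22 in aged and -0.50 in young cells) and Frzb and Cilp2 (0.01 and 0.52). The points share a library and each cell's depth is in both values, so these are descriptions.

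**Figure D5:**
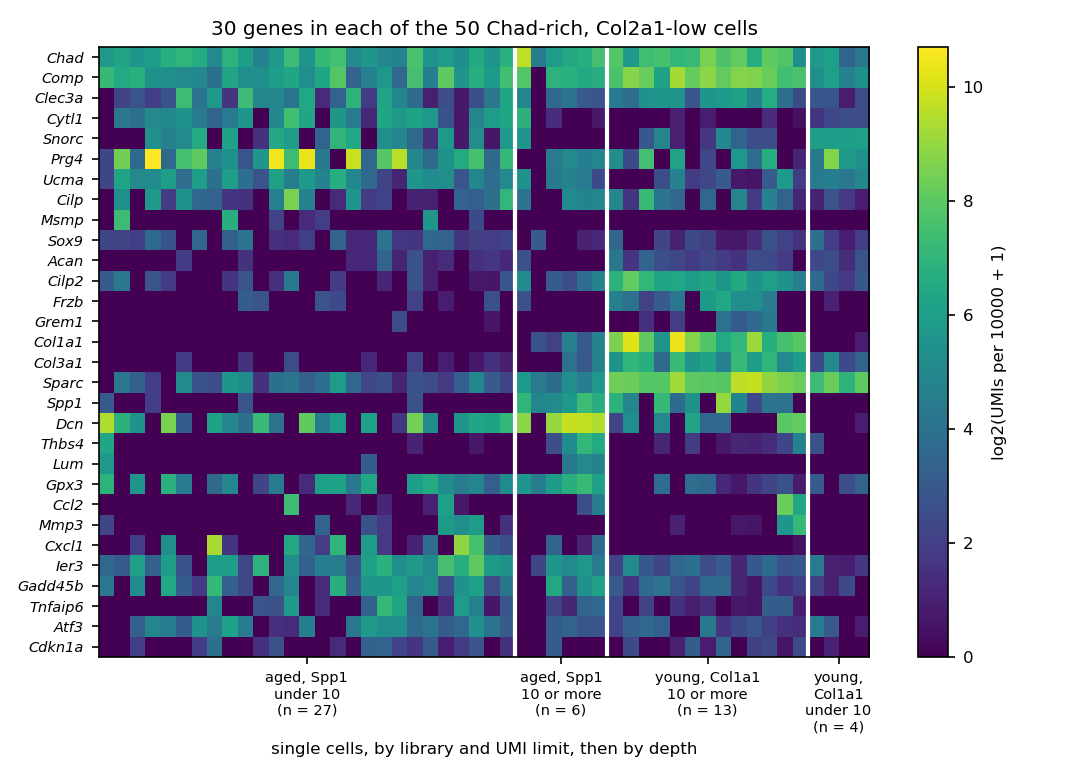
Columns are the 50 cells, in 4 groups set by library and by Spp1 (aged) or Col1a1 (young) counts, and rows are 30 genes; colour gives log2(UMIs per 10000 UMIs of the cell + 1). Col1a1 fills the 13 young cells of the third group and is dark in the 27 aged cells on the left, where Cytl1, Snorc and Prg4 are bright in many cells.

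Within the young library the 17 cells were set beside the 112 cells with at least 10 Col2a1 UMIs and no Ptprc, at a median depth of 15036 UMIs. The 17 cells were lower in all measured cartilage collagens and higher in most measured proteases and inhibitors. Of 6109 measured genes 913 (14.9%) were at least 1.5-fold higher and 1683 (27.5%) lower, with a median log2 ratio of -0.17. Ratios here are of the 17 cells over the Col2a1-rich cells, and the 17 cells are also the young side of the comparison by age. All 7 measured cartilage collagens were lower, Col2a1 among them by the rule. Col9a2, a chain of the type IX collagen that coats type II fibrils, stood at 59.4 against 1658 CPM (-4.80, -5.71 to -4.03) and Col9a1 at 73.1 against 913 CPM (-3.64, -4.45 to -2.94). Snorc stood at 1841 against 9074 CPM (-2.30, -2.45 to -2.16), and Cnmd, the antiangiogenic chondromodulin, had no UMI in the 17 cells (at least 13.3-fold lower). Acan (-0.83, -1.18 to -0.49), Prg4 (-1.07, -1.16 to -0.98) and Cytl1 (-1.66, -2.31 to -1.07) were also lower.

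Of the mineralization list 6 of 10 measured genes were lower and 1 higher, though the list made up 1.99% of UMIs in the 17 cells and 2.04% in the Col2a1-rich cells. Ibsp stood at 91.4 against 909.7 CPM (-3.32, -4.03 to -2.68). Phospho1, a phosphatase that starts mineral formation, and Alpl had no UMI in the 17 cells and were at least 12.5-fold and at least 11.3-fold lower. The member on the other side was Spp1 (3.16, 3.03 to 3.28), with 69.2% of its UMIs in 1 cell. Cilp2 (1.52, 1.42 to 1.62), Frzb (1.37, 1.20 to 1.53) and Grem1 (1.22, 0.88 to 1.56) were higher, and 7 of 11 measured BMP and WNT antagonists were higher and 2 lower. Of the fibrous matrix 7 of 18 measured genes were higher and 4 lower, with a median of 0.20, and the list made up 7.69% of UMIs in the 17 cells and 6.43% in the Col2a1-rich cells. Col1a1 stood at 25769 against 1786 CPM (3.85, 3.79 to 3.91), and Scx at 192 against 12 CPM (4.00, 3.21 to 4.83), with 69% of its UMIs in 1 cell. Of the proteases and inhibitors 14 of 18 were higher, with a median of 1.08, among them Timp1 (2.72, 2.51 to 2.93) and Timp2 (2.27, 2.12 to 2.42), inhibitors of matrix metalloproteinases. Of the glycolysis and hypoxia list 16 of 21 were higher, among them Vegfa, an angiogenic factor (1.60, 1.17 to 2.01). Of 8 complement genes 6 were higher. Atf3 differed little (489 against 561 CPM, -0.20, -0.50 to 0.09), and Cdkn1a stood at 251 against 78.2 CPM (1.68, 1.20 to 2.14).

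The largest ratios of this comparison came from few cells. Ccl2 (10.77, 9.41 to 12.65), Ccl7, another monocyte chemokine (5.04, 4.26 to 5.90), Mmp3 (5.67, 5.31 to 6.05) and Dcn (5.38, 5.19 to 5.57) had 77.1%, 85.7%, 77.2% and 50.8% of their UMIs in 1 of the 17 cells. Kera had 92.5%, Igfbp6, an IGF-binding protein (4.70, 3.87 to 5.61), 69.2%, and Crip1, a LIM-domain protein (4.62, 4.29 to 4.95), 85.9%. Mfap5, a microfibril protein, was spread over 8 of the 17 cells (4.41, 3.72 to 5.16). Towards the Col2a1-rich cells, beside the collagens, lay Tnni2, a troponin, with no UMI in the 17 cells and in 32 of the 112 (at least 63-fold lower), Mug1, a protease inhibitor (-5.67, -10.97 to -3.18), Ccn6 (-4.24, -9.55 to -1.74), Col9a3 (-4.07, -6.35 to -2.51), Enho (-4.04, -6.32 to -2.48) and Capn6 (-4.02, -7.08 to -2.16), each with 1 to 3 UMIs in the 17 cells.

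Within the aged library the 33 cells were set beside the 498 other stromal cells. More noncollagenous cartilage genes were higher, and more fibrous matrix and interferon genes lower, in the 33 cells. Of 7948 measured genes 1177 (14.8%) were higher in the 33 cells and 3101 (39%) lower, with a median log2 ratio of -0.32. Ratios here are of the 33 cells over the other stromal cells, and the 33 cells are also the aged side of the comparison by age. Of the noncollagenous cartilage genes 14 of 15 were higher and 0 lower, with a median of 3.86, Chad among them by the rule. Snorc stood at 2633 against 0.324 CPM, with 1 UMI in the 498 cells (12.99, 10.50 to 18.29). Clec3a, a cartilage lectin, had a ratio of 9.30 (8.55 to 10.18), with all 14 UMIs of the other cells in 1 cell. Cytl1 had a ratio of 7.96 (7.52 to 8.42), Msmp 9.26 (7.69 to 11.55), Scrg1 6.86 (6.34 to 7.42), Ppp1r1b, a phosphatase inhibitor, 6.56 (5.42 to 7.94), and Spp1 5.38 (5.09 to 5.67). Frzb had no UMI in the other cells (at least 114-fold higher). Acan stood at 126 against 1.62 CPM (6.28, 4.92 to 8.0).

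The compared cells were selected in part on Col1a1, Dcn, Lum and Prg4, so the fibrous matrix count is not independent of that choice. Of the fibrous matrix 15 of 19 measured genes were lower and 2 higher, with a median of -3.10. Tnc had 1 UMI in the 33 cells (-5.16, -10.47 to -2.67). Col14a1, a fibril-associated collagen, and Tnn, tenascin N, had none and were at least 26.4-fold and at least 24.3-fold lower. The largest ratios towards the other cells were Dpt, dermatopontin (-7.88, -13.18 to -5.40), the WNT modulators Sfrp2 (-6.90, -12.21 to -4.42) and Sfrp4 (at least 91.1-fold lower), Pi16, a marker of progenitor fibroblasts (-6.24, -11.55 to -3.76), Efemp1, an elastic fibre protein (-6.03, -11.34 to -3.55), Pltp, a lipid transfer protein (-5.96, -8.24 to -4.41), Aspn, asporin (-5.54, -7.82 to -3.99), and Bglap, osteocalcin, which was in 7 of the other cells (-5.82, -8.87 to -3.97). Of the IGF axis 5 of 9 were lower, among them Igfbp6 (-3.69, -3.97 to -3.42) and Igfbp5 (-2.82, -3.16 to -2.50).

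Of 22 interferon and MHC class I genes 19 were lower and 0 higher, with a median of -1.39, among them Ifitm3, an antiviral membrane protein (517 against 2900.1 CPM, -2.49, -2.74 to -2.24), and Isg15, a ubiquitin-like interferon product (-2.70, -3.84 to -1.77), with 88.9% of its 9 UMIs in 1 of the 33 cells. Of 13 complement genes 9 were lower and 3 higher, with Clu on the higher side (2.83, 2.78 to 2.89). Summed, the complement list made up 1.59% of UMIs in the 33 cells and 0.686% in the other cells, the opposite side to the count of genes. Of the glycolysis and hypoxia list 14 of 21 were higher, among them Pgk1, a phosphoglycerate kinase (1.72, 1.43 to 2.00). Of 36 early response genes 10 were higher and 3 lower. Atf3 stood at 1634 against 1349 CPM (0.28, 0.13 to 0.42), and Cxcl1 at 6058 against 5811 CPM (0.06, -0.01 to 0.13). The summed levels of both were thus close to those of the other aged stromal cells. For Cxcl1 the sum leaned on 1 of the 33 cells, with 724 UMIs, where the next highest held 313. Thinned to 2000 UMIs, the shares of the 33 and the other cells were 51.5% and 31.6% for Cxcl1 and 69.7% and 47.3% for Atf3. Cdkn1a stood at 249 against 78.1 CPM (1.67, 1.25 to 2.07). Thinned, it was found in 33.3% of the 33 cells and 10.6% of the other cells, unthinned in 48.5% and 20.1%, at median depths of 6800 and 5869.5 UMIs, against 1.51% of B cells after thinning. Cdkn2a was in 1.06% of the other cells and 1.28% of B cells after thinning.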

How the data were processed

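The deposited matrices hold raw UMI counts per gene and barcode, which the authors made with Cell Ranger 6.1.1, per the submitters' processing notes. For the reference the counts were made on, build and annotation were not given in the sources used here. Barcodes were filtered and cells chosen by the limits given above, on the deposited counts, and counts were summed per library. Ratios are of CPM with exact conditional binomial 95% intervals, and shares carry Clopper-Pearson intervals. A gene with 0 counts was set against 3 counts. The ratio and its interval were checked on simulated counts with no variation between cells or animals. That check covers counting error only. Python 3.11.15 and scipy 1.17.1 were used, with scanpy 1.11.5 for Scrublet, whose calls removed no cell. The scaling factors of edgeR 4.0.16 and DESeq2 1.42.0 served as alternatives only, with no test by either tool. For a share of 0 the limit is 3 counts over the number of cells. Of the genes in 25 pathway and 19 marker lists, 19 are not listed by symbol in the files used here.

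Genes were named by rule: the 7 markers and a fixed set (Atf3, Prg4, Acan, Cdkn1a, Cdkn2a, Col2a1, Col1a1); the 12 largest ratios in each direction between ages, and the 8 largest in the other comparisons; and up to 4 genes per list. The rankings took genes reaching 50 CPM on the higher side and 50 summed counts, leaving out mitochondrial, ribosomal, haemoglobin, immunoglobulin and uncharacterised names. Fos, Jun, Junb, Jund, Comp, Mgp, Fn1, Id3, Sox9, Ecrg4, Tnfaip6, Ifitm3, Thbs4, and the other genes given for the groups within a library or carried into a comparison whose rule does not name them, were picked with their values known. The cells and the lists were chosen with earlier results of these data known.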

Additional observations from a re-analysis of the deposited data

How the results depend on the processing

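No paired analysis was possible because each age has 1 library, and for the same reason no replicate could be left out. Counting depth and 33 and 17 cells limit every value. With no Col2a1 limit, an alternative chosen after seeing the data, there were 109 young cells, with 1100 genes higher and 1975 lower in aged cells. The log2 ratio then turned to 0.51 for Chad, 0.45 for Spp1, -1.78 for Ibsp, -0.67 for Alpl, 0.15 for Scx, 1.09 for C1qtnf3, 0.81 for Inhba, -0.58 for Ucma, 0.79 for RT1-A2 and 0.00766 for Ero1a, and the mineralization median to -0.00812. Of genes under 1.5-fold apart in the report, Snorc then stood at -1.65, Sox9 at -0.20 and Cdkn1a at 1.16. Ibsp also turned to -0.37 with at least 20 Chad UMIs and to -0.12 without cells with Cd79b or Hba-a1, the other alternative chosen after seeing the data. With fewer than 3 Col2a1 UMIs, Col2a1 turned to 0.46 and Spp1 to 0.24. Without the top 8% of doublet scores, C1qtnf3 turned to 0.44 and Inhba to 1.51, and Inhba to 1.62 without its highest cell. With fewer than 3 Col2a1 UMIs Snorc stood at 1.59. Thinned to 2000 UMIs, 199 genes were higher and 119 lower, and the cause of this change in balance was not tested. With that thinning Cdkn1a stood at 0.63, Tcf7l2 turned to -0.37, Papss1 to 1.36, Inhba to 0.36 and the BMP, TGF-beta and WNT signal median to 0.365. A minimum of 50 counts gave 244 higher and 246 lower, and no minimum 2110 and 2180. Thinning, the changed count minimum and the lifted Col2a1 limit also change how many genes are measured. Their counts of higher and lower genes therefore cannot be set directly against those of the main comparison. Thinned to 1000 UMIs, Atf3 was in 48.5% of aged and 35.3% of young cells, and Cdkn1a in 18.2% of aged and 5.88% of young cells. The results named in this section are mainly those that reversed, and more results moved without reversing. Thinning to 2000 UMIs moved 68 results and left 69 marked as the same. Leaving out the top 8% of doublet scores moved 42 and left 100. The mean of per-cell CPM, used in place of summed counts, moved 31 and left 157. With no Col2a1 limit 61 moved and 72 were left. The causes of these changes were not tested.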
